A study of Mus musculus with 32 samples.

Results

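The cortical neuropeptides examined here were the products of 9 genes, Npy, Sst, Cck, Vip, Crh, Cort, Pdyn, Adcyap1 and Tac2. Every probe carrying one of these symbols was taken, which gave 12 probes of 25697 on the array. The symbols were 9 of the 18138 that the array names. In the frontal cortex (FCtx) of 20 ethanol-treated mice and 12 controls, 9 of the 12 probes were detected on all 32 arrays, and these covered 7 of the 9 genes. The probes for Crh and Tac2 and 1 of 2 probes for Vip were detected on 0 of 32 arrays.

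All mice were females of an F1 cross that the labels write as C57BL/6J x FVB/NJ F1, and the methods describe reciprocal crosses. Ethanol-treated mice were offered 20% ethanol beside water in limited daily sessions in the dark for 20 days and were killed 20 hours after the last one, whereas controls were untreated. The tissue was the dorsal part of the most rostral coronal section of cortex, without olfactory bulbs, and each mouse was measured on 1 Illumina MouseRef-8 v2.0 array. Their ages are not given in the sources used here. The arrays lay on 4 chips of 8. Chips 1 and 2 held ethanol-treated mice, chip 4 held controls, and chip 3 held 4 mice of each group, the ethanol-treated ones at the odd positions and the controls at the even ones. Only chip 3 therefore compared the groups on the same chip, and there treatment and odd or even position cannot be told apart. Between 9480 and 11413 probes were detected per control array and between 10644 and 11544 per ethanol array. Control C66 of chip 4 stood apart. It had the 9480, where the control with the next fewest had 10637, and its raw Npy signal was 1460, where the other arrays ran from 2515 to 3643. The contrast of chips 1 and 2 with chip 4, and its difference from the chip 3 effect, are therefore also given without it. So is the difference of Cort probe 2 over all arrays. The other results that use chip 4, among them the comparisons of controls and of odd and even positions, include C66.

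Neuropeptides are cut from larger precursor proteins, stored in dense core vesicles and released to act on G protein-coupled receptors. In the cortex most of them are made by inhibitory interneurons and mark their classes. Sst and Npy mark overlapping classes of dendrite-targeting cells, Cort (cortistatin) is a relative of Sst that binds the same receptors, and Vip marks cells that inhibit other interneurons. Cck is made both by a class of interneurons and by pyramidal cells. Pdyn (prodynorphin) encodes the ligands of the kappa opioid receptor, Adcyap1 encodes the peptide PACAP, Crh encodes the corticotropin-releasing hormone of the stress response, and Tac2 encodes neurokinin B. In whole tissue, fewer cells of a class and less RNA per cell cannot be told apart.

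Each gene is read through 50-base probes. Shown here are 2 that reach into the coding sequence of a precursor, because they say which part of the transcript was measured. Whether other probes reach it too was not established. In the 2 shown, the capitals mark the stop codon that closes the frame read in the first part of the probe.
Cck: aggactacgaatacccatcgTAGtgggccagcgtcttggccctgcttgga
Cort probe 1: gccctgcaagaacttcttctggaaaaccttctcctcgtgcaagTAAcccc
The Cck probe covers the last 6 whole codons of its precursor and 27 bases after the stop. Cort probe 1 covers the last 14 whole codons, in which the mature cortistatin peptide is encoded, and 4 bases after the stop.

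Many neuropeptide genes are known to respond to cyclic AMP through a response element in the promoter, so the 250 bases before each RefSeq start site (build GRCm38.p6) were searched for TGACGTCA and for its first part, TGACG, on both strands. Of the 9 genes, 8 had an entry. TGACGTCA was in the promoter of Sst alone, and 1.55% of all 32851 promoter windows held it. The 8 genes had 10 windows, 1 for each annotated start site. TGACG, which every TGACGTCA contains, was in 6 of these 10 windows, against 17.8% of all windows, and the 6 belonged to 5 genes. The stretches around these matches are given on the strand of the gene, with the match in capitals.
Sst, chr16:23890865-23890912, minus strand: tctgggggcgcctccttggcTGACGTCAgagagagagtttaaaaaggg
Vip, chr10:5639119-5639163, plus strand: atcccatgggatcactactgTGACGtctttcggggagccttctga
Adcyap1, chr17:93198906-93198950, plus strand: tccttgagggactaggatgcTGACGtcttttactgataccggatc
Cck, chr9:121495717-121495761, minus strand: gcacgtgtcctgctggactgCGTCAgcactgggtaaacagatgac
Cort, chr4:149126764-149126801, minus strand: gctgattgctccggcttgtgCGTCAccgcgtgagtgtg
The first base of the match lay 48 bases before the start site in Sst, 79 in Vip, 91 in Adcyap1 (242 before its other start site, whose window holds the same match), 47 in Cck and 18 in Cort. In Cck and Cort it was on the opposite strand. These are matches of letters, and no binding was measured.

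The question was whether the RNA of these peptides differed between ethanol-treated mice and controls, and it was first asked over all 32 arrays at an FDR below 1%. By limma, 0 of the 9 tested probes passed this threshold, where 8.16% of all 10187 tested probes did. At an FDR below 10%, 1 probe passed, Cort probe 2, where 25.5% of all tested probes did. At an unadjusted p below 0.05 there were 3 of the 9 (Vip probe 2 and both Cort probes), where 31.9% of all tested probes were. The differences, ethanol minus control, ran from -0.20 to 0.03 on the log2 scale over the 9 probes, with a median of -0.08 and 2 values above 0. The values of the 2 groups overlapped for each of the 9, and 0.00982% of all tested probes had no overlap. The median over all tested probes was -0.0037, and 48.4% of them were above 0. Of the probes called at 1%, 377 were higher and 454 lower in ethanol-treated mice, and when arrays were scaled to 1 median instead the split became 182 and 13.

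**Figure D1:**
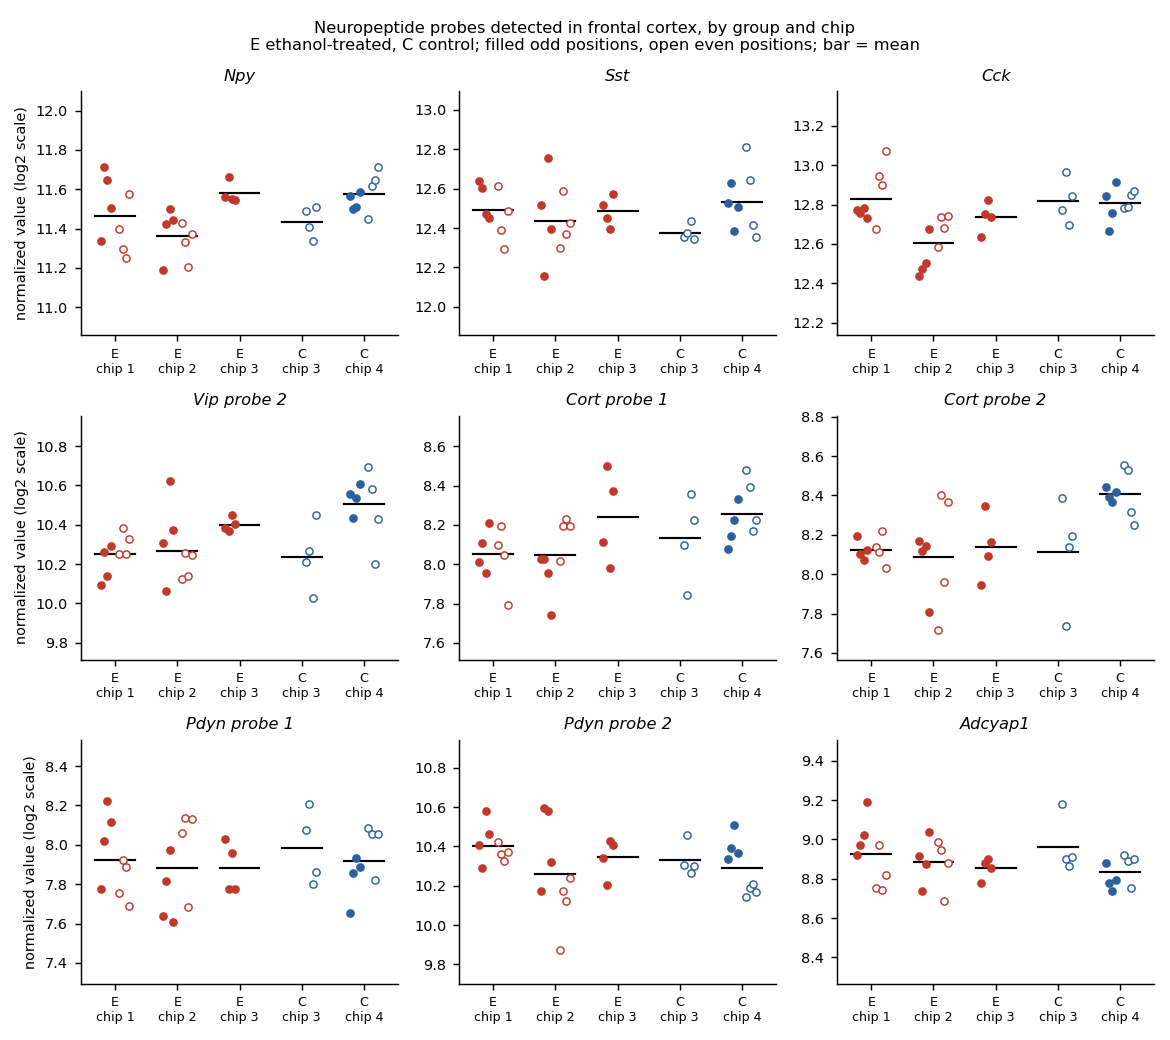
Normalized value on the log2 scale (vertical axis) of each of the 9 detected probes on every array, by group and chip; filled points lie at odd positions, open points at even ones, and the bar is the mean of the arrays of that group and chip. Cort probe 2 and Vip probe 2 are highest in the controls of chip 4, at means of 8.41 and 10.50, while the controls of chip 3 have means of 8.11 and 10.24.

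Cortistatin had the largest difference of the 9 probes. Values of Cort probe 2 ran from 7.72 to 8.40 with a median of 8.12 in the 20 ethanol-treated mice, and from 7.74 to 8.56 with a median of 8.38 in the 12 controls. The ranges overlapped, yet only 1 of 20 ethanol-treated mice lay above the control median. At the looser threshold of 10% it fell by 0.20 on the log2 scale (SE 0.065, 95% confidence interval -0.33 to -0.07, limma adjusted p = 0.0269), which is a change of -12.9%. Without C66 the adjusted p was 0.0343. The other cortistatin probe, which covers the peptide itself, ran from 7.74 to 8.50 with a median of 8.07 in ethanol-treated mice and from 7.84 to 8.48 with a median of 8.23 in controls. Its difference of -0.13 (SE 0.060, limma adjusted p = 0.139) did not pass, and 3 of 20 ethanol-treated mice were above the control median. Across the 32 arrays the 2 cortistatin probes had a Pearson r of 0.63, and of 0.59 once values were centred within chip, group and position. They read the same gene on the same arrays, so these values also hold what the arrays share.

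Vip, measured by its detectable probe, ran from 10.06 to 10.62 with a median of 10.28 in ethanol-treated mice and from 10.03 to 10.69 with a median of 10.44 in controls. The lowest value of all was in a control and 2 of 20 ethanol-treated mice exceeded the control median. The difference of -0.13 (95% confidence interval -0.24 to -0.01, limma adjusted p = 0.107) did not pass. For Npy the 20 ethanol-treated mice ran from 11.19 to 11.71 with a median of 11.43, and the 12 controls from 11.34 to 11.71 with a median of 11.51. Both groups reached the same top value, which among the controls was that of C66, with the next highest control at 11.65. The difference of -0.08 (95% confidence interval -0.18 to 0.02, limma adjusted p = 0.256) did not pass. Cck ran from 12.44 to 13.07 with a median of 12.74 in ethanol-treated mice and from 12.66 to 12.96 with a median of 12.82 in controls, a difference of -0.09 (95% confidence interval -0.19 to 0.01, limma adjusted p = 0.189).

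Sst, the remaining interneuron peptide, was close to level. Its values ran from 12.16 to 12.76 with a median of 12.46 in ethanol-treated mice and from 12.34 to 12.81 with a median of 12.43 in controls. The difference was -0.01 and its 95% confidence interval of -0.12 to 0.09 corresponds to changes of -7.69% to 6.57%. Adcyap1 ran from 8.69 to 9.19 with a median of 8.89 in ethanol-treated mice and from 8.74 to 9.18 with a median of 8.88 in controls. Its difference was 0.02 with a 95% confidence interval of -0.07 to 0.11, or -4.98% to 7.80%. For Pdyn, the probe nearer the 3′ end differed by 0.03 (95% confidence interval -0.08 to 0.14) and the other by -0.04 (95% confidence interval -0.16 to 0.08). These intervals rest on the spread between mice without regard to chip.

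The spread between mice differed among the probes. The within-group SD was 0.12 for Adcyap1, 0.13 for Cck, 0.14 for both Npy and Sst, 0.15 for Pdyn probe 2 and 0.16 for Vip probe 2. It was 0.17 for both Cort probe 1 and Pdyn probe 1 and 0.19 for Cort probe 2, where the median of all tested probes was 0.14. Cort probe 2 varied more than 88.5% of all tested probes and Adcyap1 more than 27.1%. Each value is a mean over at least 21 beads, and the median standard error over beads was between 4.30% and 6.07% of the signal for the 9 probes.

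The groups were then compared by chip. Chips 1 and 2, with 16 ethanol-treated mice, were compared with the 8 controls of chip 4, a contrast in which chip and treatment cannot be told apart. Of the 9 probes, 2 were lower at the 1% threshold and 4 at the 10% threshold. Of all tested probes, 14.2% passed the first threshold, 6.99% as lower, and 34.6% the second, 18.2% as lower. These 4 were both Cort probes, Vip probe 2 and Npy.

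Cort probe 2 ran from 7.72 to 8.40 with a median of 8.12 on chips 1 and 2 and from 8.25 to 8.56 with a median of 8.40 on chip 4. It fell by 0.30 (SE 0.070, limma adjusted p = 0.00146). Vip probe 2 ran from 10.06 to 10.62 with a median of 10.25 against 10.20 to 10.69 with a median of 10.55, and fell by 0.25 (SE 0.059, limma adjusted p = 0.00198). Ranges overlapped for both. Values of Cort probe 1 on chips 1 and 2 had a median of 8.04, against 8.23 on chip 4, and fell by 0.21 (limma adjusted p = 0.0205). Npy had medians of 11.41 and 11.58 and fell by 0.16 (limma adjusted p = 0.0232). The other 5 probes had adjusted p-values from 0.251 to 0.893. Without C66, a choice made after seeing the data, the same 4 probes passed at 10%, with Npy at -0.14 (limma adjusted p = 0.0603). Both Cort probe 2 (limma adjusted p = 0.00126) and Vip probe 2 (limma adjusted p = 0.00247) passed at 1%. The shares of all tested probes that passed without C66 are not given here. Under median scaling, added once the data had been seen, the median of all tested probes in this contrast went from -0.0069 to 0.098, and 0 of the 9 passed at an FDR below 1%, with adjusted p-values of 0.112 for Cort probe 2 and 0.455 for Vip probe 2. Adcyap1 then passed an FDR of 10%, at 0.20 (limma adjusted p = 0.0415).

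Within chip 3, where 4 ethanol-treated mice and 4 controls shared a chip, 0 of the 9 probes passed at an FDR below 1% (3.2% of all tested probes did) or below 10% (16.1% of all). At an unadjusted p below 0.05 there were also 0, where 26.7% of all tested probes were. The signs were mixed, with 6 of 9 above 0 and a median of 0.02, where the median of all tested probes was -0.00077 and 49.7% were above 0.

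Npy was the only probe of the 9 whose groups did not overlap on chip 3, which 15.2% of all tested probes did not. The ethanol-treated mice had values of 11.56, 11.66, 11.55 and 11.55, and the controls 11.49, 11.41, 11.34 and 11.51. Every ethanol-treated mouse was above every control. The difference of 0.14 (95% confidence interval -0.00078 to 0.29, limma adjusted p = 0.190) had the opposite sign to that between chips. Vip probe 2 had values of 10.38, 10.37, 10.45 and 10.40 in the ethanol-treated mice and 10.21, 10.27, 10.03 and 10.45 in the controls. Here 3 of 4 controls were below all ethanol-treated mice and the other one was level with the highest of them. The difference was 0.16 (95% confidence interval -0.01 to 0.33, limma adjusted p = 0.212), and without control C56 it was the only probe of the 9 to pass an FDR of 10% (adjusted p = 0.0767).

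Cort probe 2, the probe with the largest difference over all arrays, had 7.95, 8.35, 8.09 and 8.16 in the ethanol-treated mice of chip 3 and 8.39, 7.74, 8.14 and 8.19 in the controls. The range of the ethanol-treated mice lay within that of the controls, and the difference was 0.02 (95% confidence interval -0.21 to 0.26, limma adjusted p = 0.923). Cort probe 1 differed by 0.11 (limma adjusted p = 0.576) and Sst by 0.11 (limma adjusted p = 0.329). Cck differed by -0.08, Pdyn probe 1 by -0.10, Pdyn probe 2 by 0.01 and Adcyap1 by -0.11, with adjusted p-values from 0.397 to 0.938. When chip entered the model as a block, the estimates were those of chip 3, 0 of 9 probes passed by limma at an FDR of 1% or 10% (0.167% and 6.23% of all tested probes did), and 0 had an unadjusted p below 0.05, where 19.4% of all did.

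**Figure D2:**
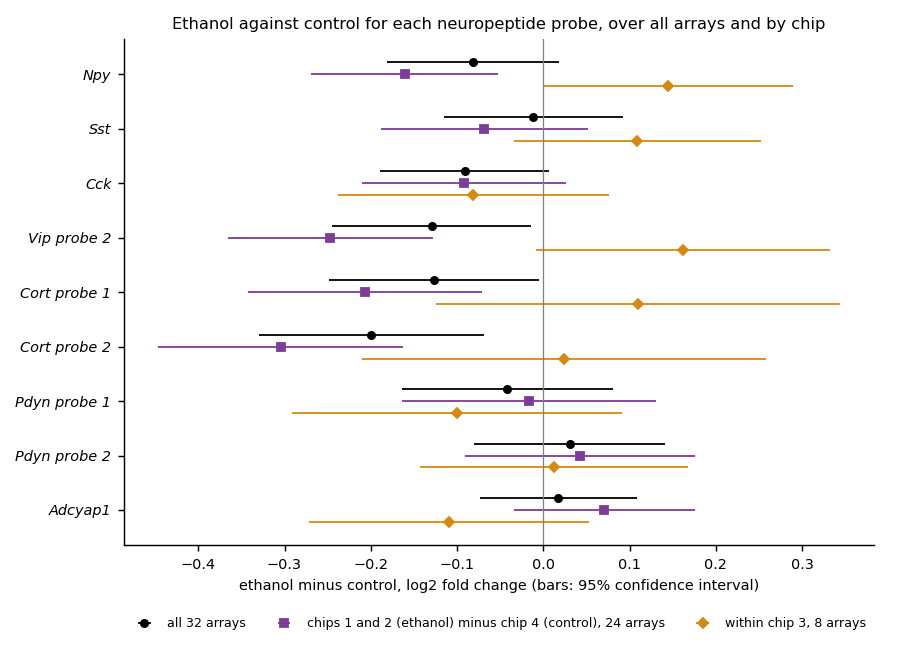
Ethanol minus control as a log2 fold change (horizontal axis) with its 95% confidence interval for each of the 9 detected probes, over all 32 arrays (black circles), for chips 1 and 2 against chip 4 (purple squares) and within chip 3 (orange diamonds). For Npy, Vip probe 2 and both Cort probes the squares lie below 0, from -0.30 to -0.16, and the diamonds above it, from 0.02 to 0.16.

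The difference between the effect on chip 3 and the effect between chips was tested itself. At an FDR below 1%, 0 of 9 probes passed (2.58% of all did), and at an FDR below 10%, 2 passed (14.5% of all did). These were Vip probe 2, at 0.41 (SE 0.113, 95% confidence interval 0.18 to 0.64, limma adjusted p = 0.0188), and Npy, at 0.31 (SE 0.102, 95% confidence interval 0.10 to 0.51, limma adjusted p = 0.0529). The 2 Cort probes gave 0.32 and 0.33 with adjusted p-values of 0.114 and 0.117. Leaving out 1 array of chip 3 at a time, also chosen after seeing the data, kept Vip probe 2 past the 10% threshold in all 8 cases, with adjusted p-values from 0.00873 to 0.0739, whereas Npy reached 0.128 and lost it in 3 of 8 (without A47, C54 or C55, at 0.118, 0.10 and 0.128). Under median scaling neither passed, at adjusted p-values of 0.525 and 0.617. Without C66, 3 passed at 10%, namely Vip probe 2 (adjusted p = 0.0167), Npy (0.0677) and Cort probe 2 (0.35, adjusted p = 0.0898). The share of all tested probes that passed without C66 is not given here, so this count cannot be set against it.

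Controls alone were also compared between chips. The 4 controls of chip 3 lay at even positions, and against the 4 controls at even positions of chip 4 their Cort probe 2 values gave a difference of -0.30 (limma adjusted p = 0.140). Vip probe 2 had a difference of -0.24 (limma adjusted p = 0.203), Sst of -0.18 (limma adjusted p = 0.272) and Npy of -0.17 (limma adjusted p = 0.217). None of the 9 passed an FDR of 1% or 10% by limma (0.756% and 10.2% of all tested probes did), and 3 had an unadjusted p below 0.05, where 22.3% of all did. The 3 were Cort probe 2, Vip probe 2 and Npy. Ethanol-treated mice at odd positions of chip 3, compared with those of chips 1 and 2, passed for 0 of 9 probes at an FDR of 1% or 10% (0% and 0.137% of all), and 1 of 9, Cort probe 1 (0.24, limma adjusted p = 0.419), had an unadjusted p below 0.05, where 9.54% of all did.

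At an FDR below 10%, 1 of the 9 tested probes, Pdyn probe 2 for prodynorphin, differed with position on the chip. On chips 1, 2 and 4, where odd and even positions held the same group, Pdyn probe 2 was higher at odd positions by 0.20 (SE 0.052, limma adjusted p = 0.0139), past an FDR of 10% but not of 1%, which 20% and 3.05% of all tested probes passed. Under median scaling, chosen after seeing the data, it did not pass (0.26, limma adjusted p = 0.150). Means at odd and even positions were 10.43 and 10.37 on chip 1, 10.42 and 10.10 on chip 2, and 10.40 and 10.18 on chip 4, with the odd mean higher on each. On chip 4 the 4 odd arrays ran from 10.34 to 10.51 and the 4 even ones, C66 among them, from 10.14 to 10.21. On chips 1 and 2 the odd and even ranges overlapped. On chip 3, where odd positions held the ethanol-treated mice, the means were 10.34 and 10.33.

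Pdyn probe 1 is annotated to the same transcript record, its first base at 1650 where that of probe 2 is at 2309, and its odd minus even difference was -0.06 (SE 0.069, limma adjusted p = 0.577). Its means at odd and even positions were 8.03 and 7.81 on chip 1 but 7.76 and 8.002 on chip 2. Across 32 arrays the 2 probes had a Pearson r of 0.02, and of 0.44 once values were centred within chip, group and position. Cck gave -0.11 (limma adjusted p = 0.101, and 0.0922 under another processing). The other 6 tested probes gave adjusted p-values from 0.221 to 0.863.

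**Figure D3:**
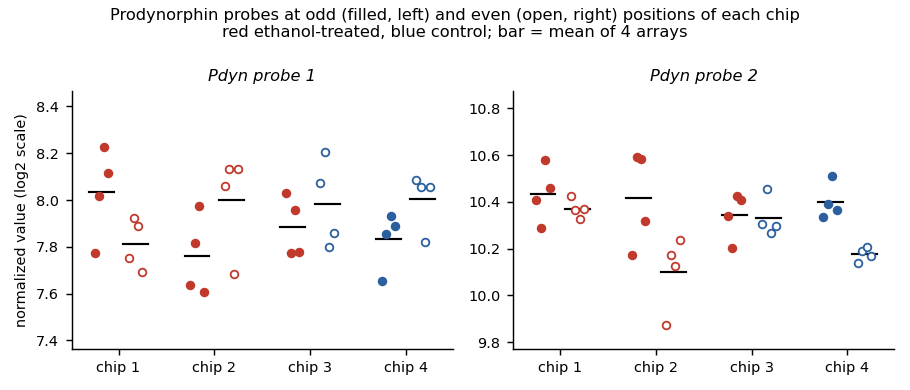
Normalized value on the log2 scale (vertical axis) of the 2 Pdyn probes at odd (filled, left) and even (open, right) positions of each chip; ethanol-treated mice are red, controls blue, and the bar is the mean of 4 arrays. Probe 2 has the higher mean at odd positions on chips 1, 2 and 4, and probe 1 only on chip 1.

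Crh, Tac2 and Vip probe 1 gave signals that were not above those of the negative control beads. Detection p-values ran from 0.0677 to 0.996 for Crh, with the raw signal between 117 and 178. For Vip probe 1 they ran from 0.104 to 0.929. For Tac2 they ran from 0.0125, close to the threshold of 0.01, to 0.876. For Tac2, 16 of 20 ethanol-treated mice had a normalized value above the control median, against 13 for Crh and 10 for Vip probe 1. When all probes of the array were tested, limma gave adjusted p-values of 0.291 for Tac2, 0.837 for Crh and 0.845 for Vip probe 1. A signal at this level gives no measure of these transcripts, and no difference between groups was detectable. The dim Vip probe belongs to the same gene as the probe detected on all 32 arrays.

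**Figure D4:**
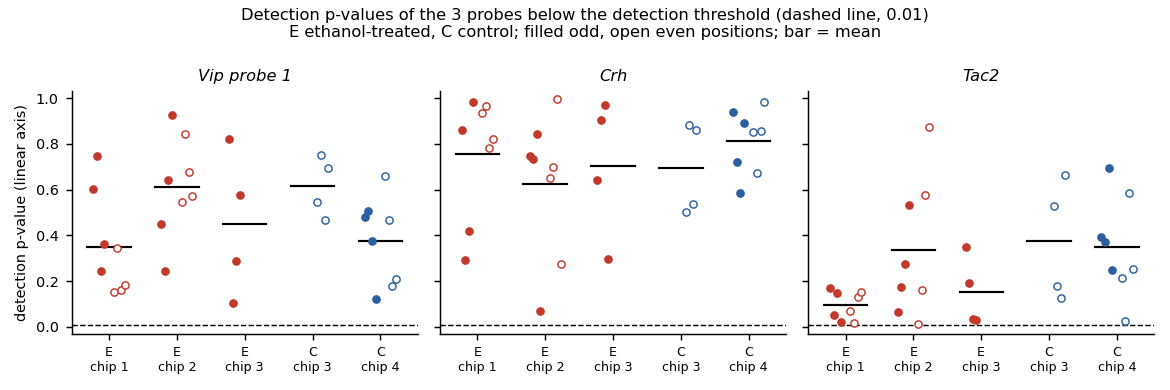
Detection p-value against negative control beads (vertical axis, linear) of the 3 probes that were never detected, on every array by group and chip; filled points lie at odd positions, open points at even ones, and the bar is the mean. All points lie above the dashed line at 0.01, and the Tac2 values come closest to it.

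Receptors of these peptides were mostly below detection. Of 19 receptor genes listed, 18 were on the array and 4 were tested. Over all arrays 0 of the 4 passed an FDR of 1% or 10%, where 8.16% and 25.5% of all tested probes did. Npy1r, a receptor of neuropeptide Y, differed by 0.09 (limma adjusted p = 0.207) and Npy5r, another, by -0.05 (limma adjusted p = 0.510). Cckbr, the main brain receptor of cholecystokinin, differed by 0.06 over all arrays (limma adjusted p = 0.418). On chip 3 it was higher in ethanol-treated mice by 0.23 (limma adjusted p = 0.0621), past an FDR of 10%, as 16.1% of all tested probes were. Between chips Cckbr differed by -0.02 (limma adjusted p = 0.843). Crhr1, the receptor of the undetected Crh, was detected on 32 arrays and differed by 0.02 (limma adjusted p = 0.869). All 5 somatostatin receptor genes, which also bind cortistatin, and Oprk1, the dynorphin receptor, were detected on 0 arrays.

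Of 26 other neuropeptide genes listed, 23 were on the array and 6 were tested. Grp (gastrin-releasing peptide) fell by 0.19 (limma adjusted p = 0.00337) and no other passed an FDR of 10% over all arrays, with a list median of 0.02. Of all tested probes, 8.16% passed an FDR of 1% and 25.5% one of 10%. On chip 3 Grp differed by -0.17 (limma adjusted p = 0.152), and with chip as a block its limma adjusted p was 0.243. Trh (thyrotropin-releasing hormone) had a difference of 0.19 over all arrays (limma adjusted p = 0.498), and on chip 3 it rose by 0.75 (limma adjusted p = 0.00082). Trh was also higher at odd than at even positions of the other chips, by 0.57 (limma adjusted p = 0.048). The genes that cut, sort and release peptides gave 13 tested of 16 listed, with a median of -0.04. Of the 13, 2 passed an FDR of 1%, where 8.16% of all tested probes did. Vgf, a granule protein and peptide precursor, fell by 0.56 (limma adjusted p = 3.53e-05), and Cadps, which primes dense core vesicles for release, rose by 0.18 (limma adjusted p = 0.00103). On chip 3 Vgf differed by -0.42 (limma adjusted p = 0.031) and Cadps by 0.14 (limma adjusted p = 0.227). With chip as a block their limma adjusted p-values were 0.145 and 0.254. Vgf also differed by -0.30 at odd against even positions of the other chips (limma adjusted p = 0.0132).

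The cells that make these peptides were read through a list of 26 interneuron genes without the members, of which 12 were tested. Over all arrays 4 of the 12 rose at an FDR below 10%, as 12% of all tested probes did. The list's median was 0.13, where that of all tested probes was -0.0037. On chip 3 the median was 0.08, and 4 of the 12 rose at an FDR below 1%, as 1.53% of all tested probes did. These were Calb2 (calretinin), by 1.31, Dlx1, a transcription factor of interneurons, by 0.64, Gad1, which makes GABA, by 0.59, and Reln by 0.38. Between chips these 4 differed by 0.23, 0.02, 0.20 and 0.11, with adjusted p-values from 0.133 to 0.937. At odd against even positions of the other chips, with the group held fixed, they differed by 0.75, 0.37, 0.27 and 0.27, where Gad1 passed an FDR of 10% (adjusted p = 0.0473) and the others did not (adjusted p from 0.115 to 0.145). Since odd positions of chip 3 held the ethanol-treated mice, position and treatment cannot be told apart in the values of chip 3.

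Summed over the 12 genes, the normalized signal on chip 3 was 23743 to 25321 in ethanol-treated mice and 17945 to 20978 in controls, with no overlap. Taken singly, 15.2% of all tested probes had no overlap there. Sums of astrocyte genes (30967 to 33567 against 26428 to 29193) and endothelial genes (3634 to 4007 against 3177 to 3321) were also higher without overlap. So were those of the receptors and other neuropeptides, and that of excitatory neuron genes was lower without overlap. Sums of the remaining lists overlapped. The Npy and Vip means of chip 3 were higher in the same mice, and the part of interneurons in those values was not tested. Olfactory bulb markers were also examined there. Of 7 listed, 5 were on the array and 3 were tested (Doc2g, Th and Sp8), and their median difference on chip 3 was 0.35. Doc2g and Sp8 passed an FDR of 10%, which 7.84% of all tested probes passed as higher. At odd against even positions of the other chips the 3 had a median of 0.25, with Doc2g at 0.44 (limma adjusted p = 0.178) and Th at 0.25 (limma adjusted p = 0.0876). On chip 3 the 3 summed to between 652 and 875 in ethanol-treated mice and between 497 and 660 in controls, with overlap. Their part in the Npy and Vip values was not tested either. Eomes was detected on 8 of 32 arrays and Tbx21 on 1. Choroid plexus markers gave 0 tested genes, with Ttr detected on 3 arrays.

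Markers of the cortical tissue itself were detected, with 9 of 13 excitatory neuron genes tested. Over all arrays Slc17a7, Tbr1, Nrgn and Fezf2 fell at an FDR below 1%, with a list median of -0.09, where 4.46% of all tested probes fell. On chip 3 Slc17a7, the vesicular glutamate transporter of these cells, fell by 0.46 (limma adjusted p = 0.0014) and Tbr1 by 0.54 (limma adjusted p = 0.00498), whereas Nrgn and Fezf2 had adjusted p-values of 0.695 and 0.681. At odd against even positions of the other chips Slc17a7 differed by -0.19 (limma adjusted p = 0.049). The median of the excitatory neuron genes was 0.07 in that comparison. Neurod2 was higher at odd positions by 0.33 (limma adjusted p = 0.0023), past an FDR of 1%, which 3.05% of all tested probes passed. Oligodendrocyte genes (10 tested) had a median of -0.04 over all arrays and -0.38 on chip 3, where 7 fell at an FDR below 10%, as 8.25% of all tested probes did. Their median at odd against even positions of the other chips was -0.15. Activity-regulated genes (12 tested) had a median of -0.11 over all arrays, and Fosb, Junb, Arc and Nptx2 fell at an FDR below 1%, again beside 4.46% of all. On chip 3 their median was 0.02, and Bdnf, a neurotrophin, rose by 0.43 (limma adjusted p = 0.00737), with -0.17 between chips (limma adjusted p = 0.0533). Of 9 astrocyte genes tested, Aqp4, a water channel, rose by 0.56 at an FDR below 1%. Over all arrays none of the 9 microglial, 6 endothelial, 3 striatal and 3 blood genes tested passed it. On chip 3 the astrocyte genes had a median of 0.23, and 3 rose at an FDR below 1%. At odd against even positions of the other chips their median was 0.03, and 1 was higher at that threshold, as 1.54% of all tested probes were. The endothelial genes had a median of 0.05 on chip 3, and 1 rose there at an FDR below 1%, where 1.53% of all tested probes rose. None of the microglial, striatal and blood genes passed it on chip 3. With chip as a block, 0 genes of these lists passed an FDR of 1%, and 17 of all tested probes did (0.167%).

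Whether the peptides varied together from mouse to mouse was examined over 32 arrays, with values centred within chip, group and odd or even position. The 7 detected genes gave 21 pairs, each represented by the probe with the highest mean. None of the 21 had an adjusted p below 0.05. The strongest was Sst with Vip probe 2 (Pearson r = 0.52, permutation p = 0.0461, adjusted p = 0.530; Spearman rho = 0.30, permutation p = 0.177, adjusted p = 0.676). Without A32 and A29, the 2 arrays farthest from the median of Sst, r was 0.26, so the value rests on those arrays. Vip probe 2 with Adcyap1 followed (Pearson r = 0.41, permutation p = 0.0597, adjusted p = 0.530; Spearman rho = 0.50, permutation p = 0.0141, adjusted p = 0.297), and r was 0.39 without the 2 arrays farthest from the median of Vip. Sst and Cort probe 2, which share receptors, gave r = 0.33 (permutation p = 0.0757, adjusted p = 0.530; Spearman rho = 0.41, permutation p = 0.0409, adjusted p = 0.361), and 0.40 without 2 arrays.

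The probe most like each member in its centred values was sought among all other tested genes, as a description. For Adcyap1 it was Egr1, an immediate early gene, with a Pearson r of 0.78 over 32 arrays, followed by Csnk1d at 0.66 and Osgep at 0.63. The r with Egr1 was 0.90 over the 20 ethanol-treated mice, 0.61 over the 12 controls, and 0.72 without C52 and A44. Without centring it was 0.28. It was the highest of the 10187 tested probes by choice, and the arrays share chip, amplification and normalization. The centred values hold fewer independent points than arrays, since 8 means were removed.

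For Npy the most alike were Tmem209, Sult4a1 and St7l, with r from 0.71 to 0.72, and for Sst they were Phactr1, Nipa1 and Dlgap1, also from 0.71 to 0.72. Cck had Elfn1, which is also on the interneuron list, at 0.64. Vip probe 2 had Zfp238, Syt16 and Ensa, with r from 0.71 to 0.73. Both Cort probes had Ddx54 first, at 0.71 for probe 1 and 0.65 for probe 2. The 2 Pdyn probes shared none of their first 3, which were Lrrc28, Ndrg3 and Dnajc12 for probe 1 and Zfp316, D5Wsu178e and Kcnmb4 for probe 2.

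**Figure D5:**
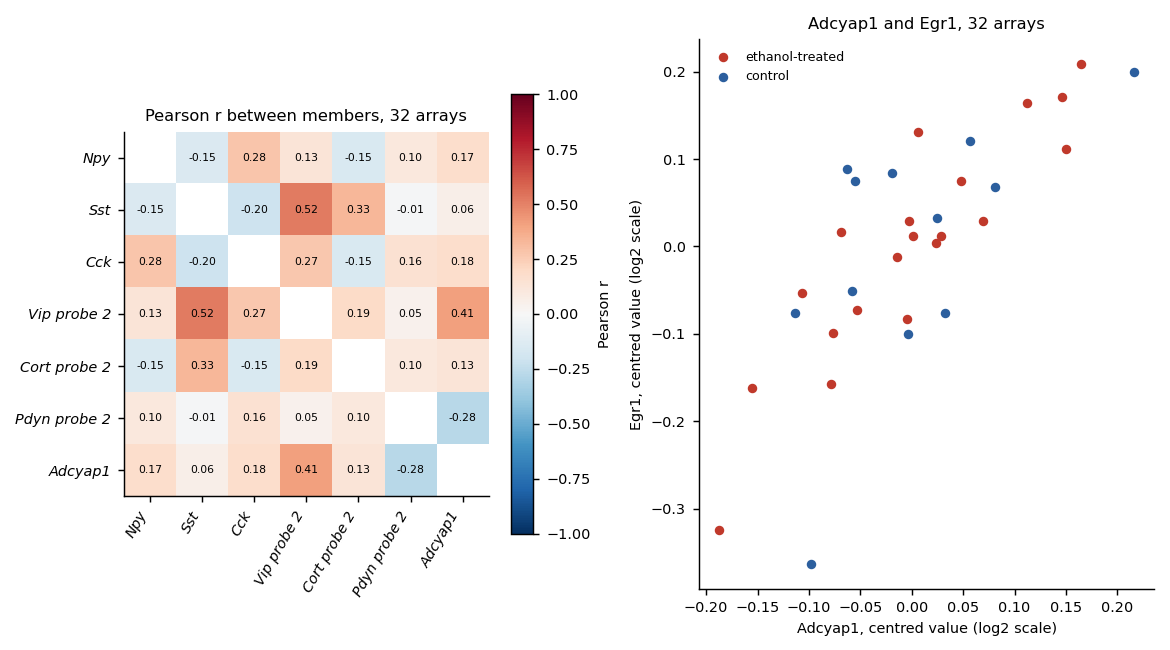
Left, Pearson r between the 7 detected neuropeptide genes over 32 arrays, with values centred within chip, group and odd or even position; right, centred Adcyap1 against centred Egr1 (both axes on the log2 scale), 1 point per array. The r values on the left run from -0.28 to 0.52, and on the right the points follow a rising line with r = 0.78.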

How the data were processed

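The labels gave the group, mouse, chip and position of each of 32 arrays. The authors deposited an intensity for each probe and array, which is the mean signal of its beads on a linear scale without normalization. Deposited beside it were a detection p-value, which compares the signal with negative control beads, and other values, namely the bead count and the standard error of the bead mean. The submitters' processing notes name lumi and limma. The software that summarized the beads is not given in the sources used here.

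Because lumi was not used here, a variance-stabilizing transform was rebuilt from the bead statistics, followed by quantile normalization. Values are on a log2 scale, on which low signals are compressed. A probe was tested if its detection p-value was under 0.01 in 24 or more of the 32 arrays (10187 of 25697 probes). Tests used limma 3.58.1 in R 4.3.3, with the data.table package (version 1.17.8) and Benjamini-Hochberg adjustment over all tested probes. The number of arrays limits the precision. Where a list gene had several tested probes, the one of highest mean stands for it. Correlations were tested by 100000 two-sided permutations within chip, group and position. These were run with scipy 1.17.1, numpy 2.4.6 and pandas 2.3.3 under Python 3.11.15, and figures were drawn with matplotlib 3.10.9. The steps were tested on simulated data. Promoters came from RefSeq, and the 50 bases after the start site were not searched.

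All probes of the 9 members and all tested receptors are named, with some of the genes of other lists that passed an FDR of 1% and the most correlated genes of each tested member. Other list genes that are named, including those named for not being detected, were chosen after their values were seen. Members and lists were chosen with earlier results of these data known. Genome positions of the probes are not printed, because the build behind them is not given in the sources used here.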

Additional observations from a re-analysis of the deposited data

Results flagged for a closer look

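On chip 3, the Npy value of ethanol-treated mouse A47 (11.66) stood apart from those of the other 3 ethanol-treated mice, which lay between 11.55 and 11.56. For Adcyap1, control C52 (9.18) stood apart from the other 3 controls of chip 3, which lay between 8.86 and 8.91. Of 45 groups examined, 2 held such a value, and chance gives about 1 in 20. Without A47 the Npy difference on chip 3 was 0.12 (limma adjusted p = 0.386), and without C52 that of Adcyap1 was -0.04 (limma adjusted p = 0.789).

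The effect on chip 3 and the effect between chips differed for Npy by 0.31 and for Vip probe 2 by 0.41 on the log2 scale. Both differences passed an FDR of 10%, and with them the interneuron markers Calb2, Dlx1, Gad1 and Reln differed within chip 3. Their part in these differences was not tested.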

How the results depend on the processing

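Over all arrays, 0 of the 9 neuropeptide probes and 831 of all tested probes passed an FDR of 1%. The members' count was 2 with chips 1, 2 and 4 only and 1 at an FDR of 10%. For chips 1, 2 and 4 only, the count of all probes is not given here. In the related contrast of chips 1 and 2 with chip 4, fitted over all arrays, 14.2% of all tested probes passed an FDR of 1%. The count of all probes was 195 under median scaling, 17 with chip as a fixed block, 74 as a random block, 2 with block and position, 326 on chip 3 only and 2601 at an FDR of 10%.

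Signs turned as follows, and the causes were not tested. Median scaling gave Sst 0.038 and Pdyn probe 1 0.0076, and in the contrast of chips 1 and 2 with chip 4 it gave Sst 0.019 and Pdyn probe 1 0.071. Chip as a fixed block and chip 3 only both gave Npy 0.14, Sst 0.11, Vip probe 2 0.16, Cort probe 1 0.11, Cort probe 2 0.024 and Adcyap1 -0.11. The random block gave Sst 0.015 and Adcyap1 -0.010, and odd or even position gave Pdyn probe 2 -0.011. Block and position together gave Npy 0.092, Sst 0.080, Cck 0.027, Vip probe 2 0.13, Cort probe 1 0.21, Cort probe 2 0.044, Pdyn probe 2 -0.19 and Adcyap1 -0.16.

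Leaving out each chip 3 array gave 0 to 1 members and 967 to 1699 of all probes (1639 with all arrays) at an FDR of 10%. It moved Cort probe 2 from -0.10 to 0.11 and Pdyn probe 2 from -0.014 to 0.060.

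The alternatives that follow were chosen after seeing the data. Median scaling left 0 members between chips (2 otherwise), 0 for the difference between the chip 3 effect and that between chips (2 otherwise), where Cck was -0.12, and 0 for odd against even positions (1 otherwise). The log2 of the signal gave 2 for odd against even. Leaving out C66 gave Pdyn probe 1 0.0030 between chips. With each chip 3 array left out, the difference passed for 1 to 3 members, 1 without A47 or C54, with Cck from -0.029 to 0.060 and Pdyn probe 2 from -0.057 to 0.017. Counts of all tested probes that passed in these contrasts under these alternatives are not given here. No paired analysis was possible because the groups share no mouse numbers.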
